A study of Mus musculus with 16 samples.

Results

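Genes of fatty acid oxidation and ketone use were followed in the mouse heart after ischemia and reperfusion. With earlier results of these data known, the 37 genes were listed by name and not by measured values. Of these, 34 had a named probe set among the 19505 named genes of the array, and Acsl1, Etfb and Ucp2, which had none in the annotation used, were not analysed here. The hearts came from male C57BL/6 wild-type mice aged 10 weeks. In 3 groups the left anterior descending coronary artery, which feeds the front wall of the left ventricle, was closed for 30 min and the heart was then reperfused for 6, 24 or 72 h; the remaining group had sham surgery. The series title lists other hours than the sample labels and the design text do, and the labels were followed here. Each group held 4 arrays of total RNA from hearts, 16 in all, and the labels do not say which part of the heart was taken. The sham labels give no time after surgery, and the same sham arrays served all 3 times, so an effect of the time after surgery and one of reperfusion cannot be told apart. The labels do not tie the arrays of a group to separate mice, so the p-values measure the spread between these samples, which may in part be technical.

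The heart takes most of its energy from long-chain fatty acids. These are activated to acyl-CoA, carried into mitochondria as carnitine esters, shortened by repeated rounds of dehydrogenation, hydration, oxidation and thiolytic cleavage, and their electrons pass to the respiratory chain through the electron transfer flavoprotein. Ketone bodies enter the same acetyl-CoA pool through a short separate route, and much of the pathway is under the control of the nuclear receptor PPARα and its partners.

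Every value below is a log2 signal on the authors' scale, and every change is a difference of group means on that scale, tested with limma over all 16 arrays with p-values adjusted after Benjamini and Hochberg across the 19505 genes. A gene was called risen or fallen at an adjusted p under 0.05. The median SE of a change was 0.17 for the 34 genes and 0.18 for all genes. The 16 cardiomyocyte marker genes all lay above a background level of 6.76, below which 75% of negative control probe sets fell, in every group. Of the 34 genes, only Acsl6 lay below that level in all 4 groups, and Ehhadh had group means below it at 6 and 24 h. Because the tissue is bulk heart, fewer cardiomyocytes and less RNA per cardiomyocyte cannot be told apart in any fall described here.

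After 6 h of reperfusion 3 of the 34 genes were lower than in sham and 1 was higher, where 12.3% and 7.92% of all genes fell and rose. After 24 h, 31 of the 34 were lower and 1 was higher, where 12.3% of all genes fell and 13.8% rose. All 4 arrays at 24 h lay below all 4 sham arrays for 28 of the 34 genes, as they did for 13% of all genes. After 72 h, 22 were lower and 1 was higher, where 10.3% fell and 11.5% rose. Without 72 h replicate 20 the falls at 72 h numbered 13, and without 72 h replicate 23 they numbered 11. Falls over all genes also went from 2004 to 1467 and 1343 in these fits. At 6 h the falls numbered 5 without 6 h replicate 11, where 2246 of 19505 genes fell. The median change of the 34 genes was -0.14 at 6 h, -0.89 at 24 h and -0.55 at 72 h, while the median of all genes was -0.04, -0.07 and -0.09. The fall was called and 2-fold or more for 1 gene at 6 h, 13 genes at 24 h and 3 genes at 72 h. Such falls numbered 609, 606 and 310 among all 19505 genes, so the 6 h count was near the share over all genes. The F test over the 4 groups called 32 of the 34 genes, where it called 44.5% of all genes, and left Cpt1a and Acaa1a uncalled.

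**Figure D1:**
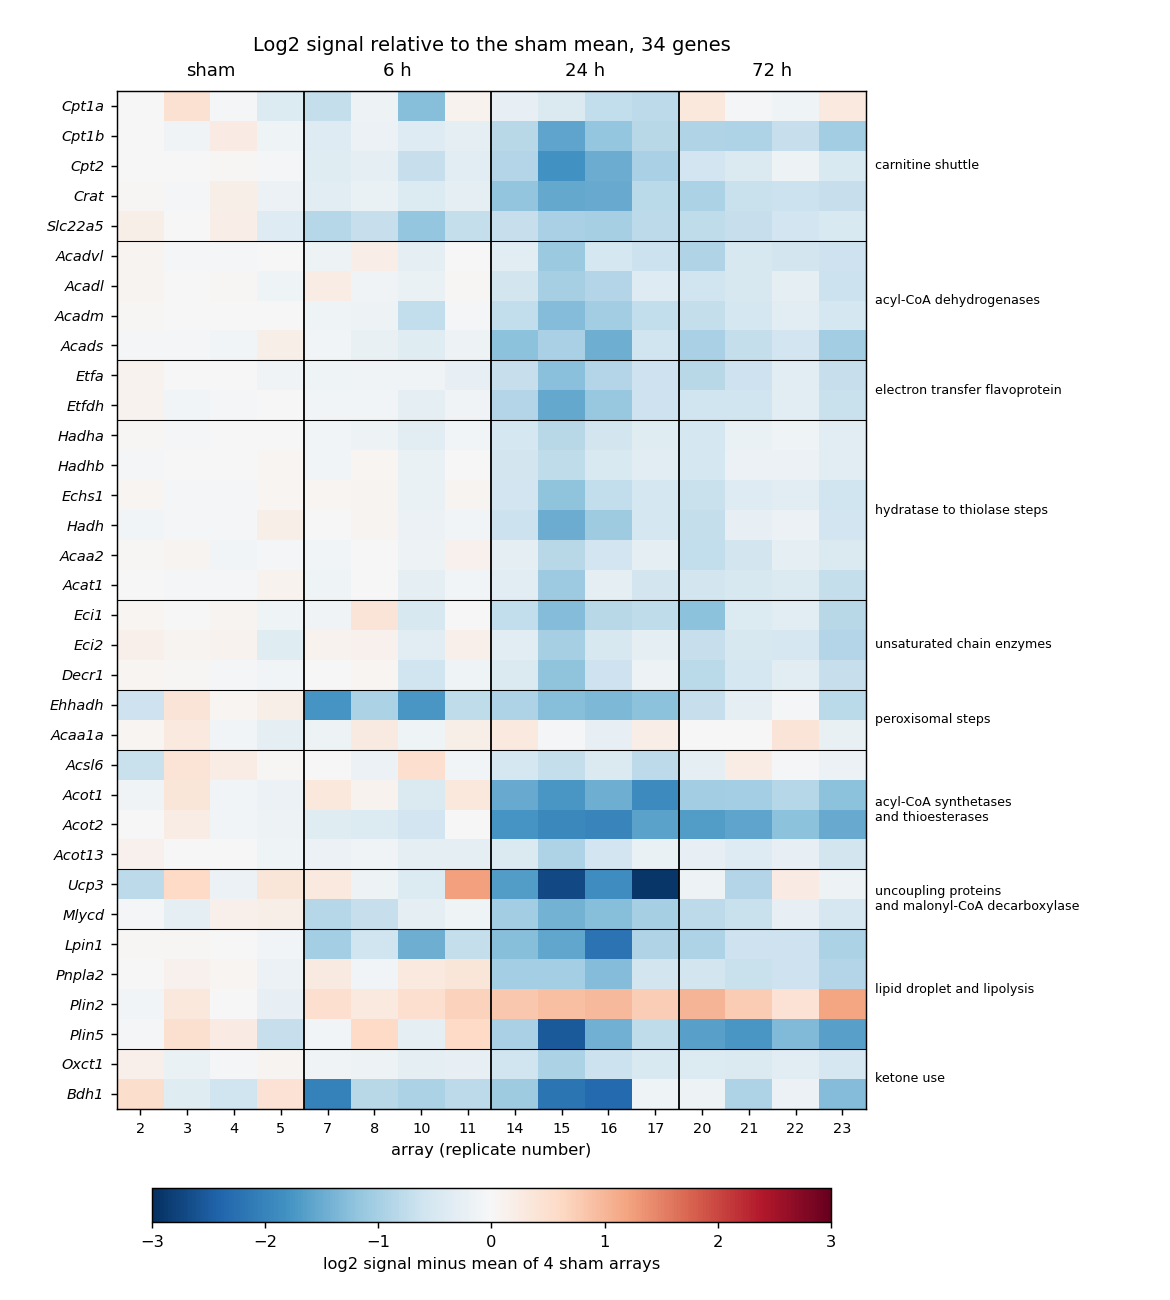
Log2 signal of each of the 34 genes on each of the 16 arrays, as the difference from the mean of the 4 sham arrays, with genes in rows ordered by role and arrays in columns by group (replicate numbers from the labels). Blue marks lower and red higher signal; the 24 h columns are blue in nearly every row, and Plin2 is the row that is red at all 3 times.

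Beside these counts, the makeup of the tissue RNA changed with time. Cardiomyocyte markers had a median change of -0.09 at 6 h, -0.36 at 24 h and -0.26 at 72 h, and 1, 7 and 6 of the 16 fell while 0, 1 and 0 rose. Their mean difference from sham lay between -0.57 and -0.33 on the 24 h arrays and between -0.42 and -0.22 on the 72 h arrays. All 14 measured monocyte and macrophage markers rose at 24 h and at 72 h and 8 rose at 6 h, with array means 1.86 to 3.34 above sham at 24 h and 2.87 to 3.62 above it at 72 h. Of 9 neutrophil markers, 8, 9 and 3 rose at 6, 24 and 72 h, and of 9 fibroblast markers 8 rose at 72 h. How much of each fall follows from these shifts in cell types was not tested, but the array signals were also recentred on the 16 cardiomyocyte markers, an alternative chosen after the data had been seen. On that scale 19 of the 34 genes fell at 24 h, where 791 of 19505 genes fell, and 6 fell at 72 h, where 576 of 19505 fell. The centring uses the mean of the markers, which Tcap pulled down. Tcap fell by 2.70 ± 0.24 at 24 h (limma adjusted p = 2.26e-07), the most of the 16. The scale is therefore not a measure of cardiomyocyte content.

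The counts also moved with the scale of the arrays. The table holds hybridization and poly-A spike-in controls, RNAs supplied with the array kits and added to each sample during preparation or hybridization. With each array centred on the former, 10, 20 and 3 of the 34 genes fell at 6, 24 and 72 h and 0, 1 and 2 rose, where 20.5%, 4.31% and 1.27% of all genes fell. With each centred on the latter, 15, 31 and 5 fell, where 31.2%, 12.7% and 3.02% of all genes fell, so the larger counts at 6 h came with larger shares of all genes. Acadm, Acads, Hadha, Acot13 and Oxct1 were called lower at 6 h on the poly-A scale alone. Median centring went the other way at 72 h, with 27 of the 34 lower, where 18.1% of all genes fell. Hybridization spike-in centring moved the median of all genes from -0.04, -0.07 and -0.09 to -0.26, 0.24 and 0.40 at the 3 times, and the median of the 34 genes to -0.36, -0.58 and -0.05. Among the calls over all genes, the share of rises went from 39.2%, 53.0% and 52.9% to 19.6%, 84.4% and 96.7%. With poly-A centring the medians were -0.37, -0.16 and 0.09 for all genes and -0.48, -0.98 and -0.36 for the 34, and the shares of rises were 12.4%, 45.1% and 82.3%. With cardiomyocyte centring the all-gene medians were 0.09, 0.37 and 0.22 and the shares 54.7%, 90.7% and 88.3%, and with median centring the shares were 43.4%, 42.5% and 34.9%. Each of these centrings moves all genes of an array by the same amount. The gap between the median of the 34 genes and that of all genes was therefore bound to stay, and is no separate support. The calls at 24 h that held under all of quantile normalization, median centring, both spike-in centrings and the cardiomyocyte centring were 19 falls and the rise of Plin2. At 72 h these settings left 4 calls, the falls of Acot1, Acot2 and Plin5 and the rise of Plin2. At 6 h they left 3, the falls of Slc22a5, Ehhadh and Lpin1.

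The stretch just upstream of a gene's start is where many of its regulators bind. It is shown here for the 4 genes with the largest falls at 24 h among the 28 of the 34 that had a RefSeq entry, namely Ucp3, Acot2, Acot1 and Lpin1. Each run is the 250 bases before the start in GRCm38.p6, 5′ to 3′ on the gene's strand. Ucp3 was read at chr7:100472741-100472990 on the plus strand, Acot2 at chr12:83987611-83987860 and Acot1 at chr12:84009252-84009501 on the plus strand, and Lpin1 at chr12:16610967-16611216 on the minus strand. Capitals mark AGGTCA, the core motif that nuclear receptors such as PPARα bind, usually in pairs, and GGGCGG, the GC box, on either strand.
Ucp3: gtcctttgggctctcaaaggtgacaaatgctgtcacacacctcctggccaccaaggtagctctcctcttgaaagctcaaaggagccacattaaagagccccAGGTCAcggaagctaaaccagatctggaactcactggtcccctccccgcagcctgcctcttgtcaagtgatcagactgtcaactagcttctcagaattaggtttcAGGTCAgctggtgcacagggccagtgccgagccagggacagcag
Acot2: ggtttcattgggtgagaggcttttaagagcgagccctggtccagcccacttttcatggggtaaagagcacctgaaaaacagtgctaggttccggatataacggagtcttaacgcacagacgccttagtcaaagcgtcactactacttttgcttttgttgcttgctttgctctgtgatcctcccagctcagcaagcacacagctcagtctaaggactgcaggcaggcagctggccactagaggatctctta
Acot1: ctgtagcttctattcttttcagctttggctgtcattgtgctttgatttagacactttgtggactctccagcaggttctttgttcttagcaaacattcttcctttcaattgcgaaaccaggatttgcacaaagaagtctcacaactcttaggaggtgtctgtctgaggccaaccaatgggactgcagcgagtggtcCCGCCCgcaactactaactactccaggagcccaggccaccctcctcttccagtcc
Lpin1: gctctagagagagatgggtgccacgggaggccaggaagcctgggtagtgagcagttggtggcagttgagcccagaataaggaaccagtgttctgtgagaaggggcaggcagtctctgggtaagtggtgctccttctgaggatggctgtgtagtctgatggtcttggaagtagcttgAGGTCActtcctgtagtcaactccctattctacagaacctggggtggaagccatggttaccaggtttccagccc

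Ucp3 held AGGTCA at bases -149 to -144 and again at -44 to -39, counted from the start, and Lpin1 held it at -74 to -69. The stretch of Acot1 held a GC box in reverse, as CCGCCC, at -55 to -50, and that of Acot2 held neither motif. Over all 32 entries of the 28 genes, AGGTCA was found in 9, or 28.1%, against 14% of 32841 RefSeq entries. The 9 belonged to Acadm, Acadvl, Acsl6, Cpt1a, Echs1, Lpin1, Plin2, Plin5 and Ucp3, which include Cpt1a, uncalled at all 3 times, and Plin2, which rose. GGGCGG was found in 20, or 62.5%, of the 32 against 32.7% of all. TCAAGGTCA, which contains AGGTCA, was found in 1 of 32 (Acsl6) against 0.387% of all, CACGTG in 0 against 6.02%, and a direct repeat of AGGTCA with 1 base between and at most 1 mismatch in each copy in 1 (Etfa) against 1.99%. These are matches of letters only, and binding was not measured.

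**Figure D2:**
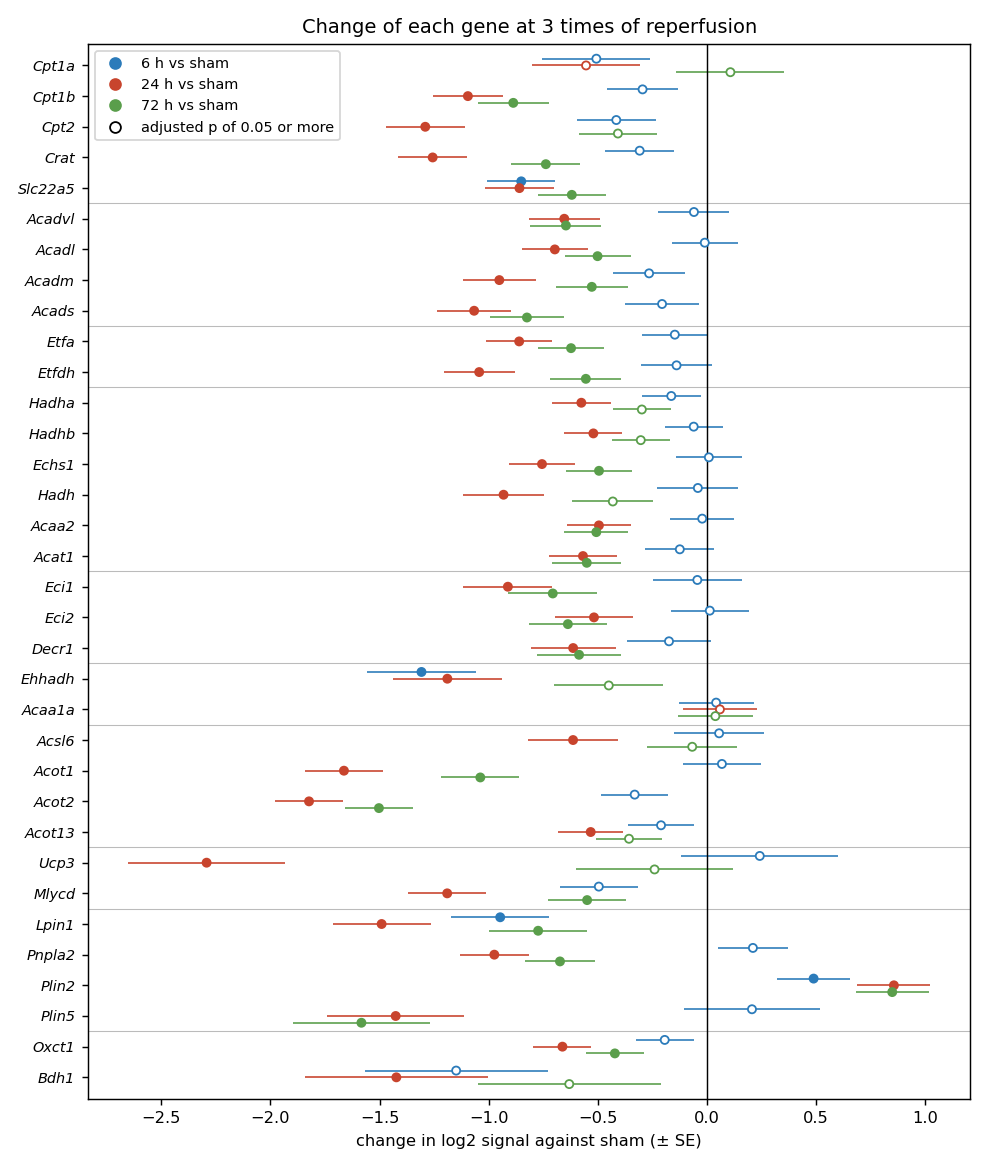
Change in log2 signal against sham with its SE for each of the 34 genes after 6, 24 and 72 h of reperfusion, 4 arrays per group. Filled points passed an adjusted p of 0.05 and open points did not; at 24 h every gene except Cpt1a, Acaa1a and Plin2 has a filled point below 0.

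The carnitine shuttle brings long-chain acyl groups into the mitochondrion. Its 5 genes encode the outer membrane transferases Cpt1a and Cpt1b, the inner membrane transferase Cpt2, the short-chain transferase Crat and the carnitine importer Slc22a5, and 1, 4 and 3 of them fell at 6, 24 and 72 h, with none higher. Cpt1b, the muscle form of the rate-limiting step, stood at 15.92, 15.83, 16.17 and 15.81 in sham, at 15.55, 15.76, 15.55 and 15.67 after 6 h, at 15.09, 14.36, 14.77 and 15.11 after 24 h, and at 15.04, 15.002, 15.24 and 14.90 after 72 h. No array after ischemia reached the lowest sham array. Its change was -0.30 ± 0.16 (SE, n = 4 per group) at 6 h, short of the threshold with limma at an adjusted p of 0.243, then -1.10 ± 0.16 at 24 h (adjusted p = 4.5e-05) and -0.89 ± 0.16 at 72 h (adjusted p = 0.000465). After 24 h Cpt1b was thus at 46.8% of its sham signal. Centring on the hybridization spike-ins took the 72 h change to -0.39, with an adjusted p of 0.0721. The 6 h fall of Cpt1b was called under the hybridization and poly-A spike-ins (limma adjusted p = 0.0292 and 0.0238).

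Cpt2 gave 13.33, 13.33, 13.38 and 13.30 in sham, 12.96, 13.07, 12.64 and 13.01 after 6 h, 12.45, 11.52, 11.84 and 12.36 after 24 h, and 12.75, 12.89, 13.18 and 12.88 after 72 h. The sham arrays lay close together, and every later array was below them. Cpt2 was not called at 6 h, but was under the hybridization and poly-A spike-ins (limma adjusted p = 0.0151 and 0.0142). It fell by 1.29 ± 0.18 at 24 h (limma adjusted p = 2.58e-05), to 40.9% of sham. At 72 h it stood at -0.41 ± 0.18 (adjusted p = 0.119; 0.0441 under median centring and 0.0393 with only the 2 groups compared), and the rise of 0.88 ± 0.18 from 24 to 72 h passed the test (adjusted p = 0.0023).

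Slc22a5 was among the few genes already lower at 6 h. Its arrays read 8.57, 8.42, 8.60 and 8.01 in sham, 7.54, 7.72, 7.24 and 7.69 at 6 h, 7.71, 7.43, 7.40 and 7.62 at 24 h, and 7.63, 7.71, 7.83 and 7.94 at 72 h. All 12 arrays after ischemia were below all sham arrays. The changes were -0.85, -0.86 and -0.62 (SE 0.16 each), with limma adjusted p-values of 0.000504, 0.000361 and 0.00712, and the difference between 24 and 6 h was -0.01 ± 0.16. The 72 h call was lost under both spike-in centrings and under cardiomyocyte centring (adjusted p = 0.593, 0.166 and 0.167). Crat, which buffers acetyl-CoA, fell by 1.26 ± 0.16 at 24 h and by 0.74 ± 0.16 at 72 h, and rose by 0.52 between these times. Its 72 h call was lost with hybridization spike-in centring (adjusted p = 0.296) and with poly-A centring (adjusted p = 0.0689). On both these scales Crat was called lower at 6 h (limma adjusted p = 0.0402 and 0.0173). Cpt1a, the liver form of the outer transferase, changed by -0.51, -0.55 and 0.11 with adjusted p-values of 0.179, 0.111 and 0.805. Its unadjusted 95% intervals were -1.02 to 0.01, -1.07 to -0.04 and -0.41 to 0.62, so a fall as large as that of Cpt1b at 72 h lies outside the interval there. Under the hybridization and poly-A spike-ins the 6 h fall of Cpt1a passed the test (adjusted p = 0.0419 and 0.0161).

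The 4 acyl-CoA dehydrogenases, which take the first step of each round and differ in the chain length they accept, all fell at 24 h and at 72 h, and none was called at 6 h. Acads, for short chains, moved most. It measured 10.60, 10.64, 10.58 and 10.84 in sham, 10.58, 10.45, 10.29 and 10.51 at 6 h, 9.44, 9.69, 9.20 and 10.07 at 24 h, and 9.69, 9.96, 10.09 and 9.62 at 72 h. The 24 h and 72 h arrays overlap each other and lie below every sham and 6 h array. Its change was -1.07 ± 0.17 at 24 h (limma adjusted p = 9.81e-05) and -0.82 ± 0.17 at 72 h (adjusted p = 0.00143). The medium-chain enzyme Acadm fell by 0.95, the long-chain enzyme Acadl by 0.70 and the very-long-chain enzyme Acadvl by 0.65 at 24 h. At 72 h the corresponding changes were -0.53, -0.50 and -0.65. The 72 h calls of Acadvl, Acadl and Acadm were lost under both spike-in centrings and under the cardiomyocyte centring, and that of Acads under the hybridization spike-ins (adjusted p = 0.209). At 24 h Acadm and Acads held under all of these and Acadvl and Acadl did not.

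Electrons from the dehydrogenases reach the respiratory chain through the electron transfer flavoprotein, of which Etfa encodes the alpha subunit, and its membrane oxidoreductase Etfdh. Etfdh stood at 17.07, 16.88, 16.93 and 16.95 in sham, 16.88, 16.88, 16.66 and 16.86 at 6 h, 16.08, 15.42, 15.83 and 16.33 at 24 h, and 16.37, 16.35, 16.61 and 16.28 at 72 h. Replicate 15 at 24 h was the lowest of all. The gene fell by 1.04 ± 0.16 at 24 h (limma adjusted p = 7.89e-05) and by 0.55 ± 0.16 at 72 h (adjusted p = 0.019). Without 72 h replicate 23 the 72 h adjusted p was 0.0587, and without sham replicate 2 it was 0.0539. The hybridization spike-ins, the poly-A spike-ins and the cardiomyocyte centring gave it 0.797, 0.31 and 0.228.

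Etfa gave 16.93, 16.83, 16.81 and 16.73 in sham, 16.70, 16.73, 16.71 and 16.57 at 6 h, 16.13, 15.56, 15.94 and 16.21 at 24 h, and 15.99, 16.20, 16.49 and 16.13 at 72 h. Its 24 h and 72 h arrays were all below its 6 h arrays. The change was -0.86 ± 0.15 at 24 h (limma adjusted p = 0.000249) and -0.62 ± 0.15 at 72 h (adjusted p = 0.0052). Under the hybridization spike-ins, the poly-A spike-ins and the cardiomyocyte centring the 72 h adjusted p of Etfa was 0.543, 0.165 and 0.114.

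The 6 genes of the later steps of each round all fell at 24 h, and 3 of them fell at 72 h. Hadha and Hadhb encode the subunits of the mitochondrial trifunctional protein, which handles long chains, Echs1 the short-chain hydratase, Hadh the short-chain hydroxyacyl dehydrogenase, and Acaa2 and Acat1 thiolases. Their median change was -0.57 at 24 h and -0.46 at 72 h, and none was called at 6 h, where the changes ran from -0.16 to 0.01. Hadh, with the largest fall, read 16.68, 16.71, 16.70 and 16.94 in sham, 16.78, 16.84, 16.57 and 16.67 at 6 h, 16.11, 15.26, 15.70 and 16.23 at 24 h, and 16.04, 16.50, 16.58 and 16.19 at 72 h. The 24 h arrays spread widely, and all lay below the sham and 6 h arrays. Hadh changed by -0.93 ± 0.19 at 24 h (limma adjusted p = 0.000813) and by -0.43 ± 0.19 at 72 h (adjusted p = 0.108).

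Acat1, which also splits acetoacetyl-CoA from ketone bodies, stood at 15.93, 15.88, 15.91 and 16.04 in sham, 15.82, 15.93, 15.67 and 15.85 at 6 h, 15.59, 14.85, 15.66 and 15.40 at 24 h, and 15.40, 15.46, 15.50 and 15.22 at 72 h. Replicate 15 set the low end at 24 h, apart from the other 3. Its change was -0.57 ± 0.16 at 24 h and -0.55 ± 0.16 at 72 h, with limma adjusted p-values of 0.0108 and 0.0163, and 0.0528 at 72 h under quantile normalization. Hadha and Hadhb, whose RefSeq starts lie 273 bases apart on chromosome 5 and face away from each other, changed side by side, by -0.58 and -0.52 at 24 h and by -0.30 and -0.30 at 72 h. At 72 h neither of the pair was called (adjusted p = 0.126 and 0.115), but both were under median centring (adjusted p = 0.0365 and 0.0325) and under eBayes with a trend and robust settings (0.0441 and 0.0342). Median centring also brought Hadh (adjusted p = 0.0391) to a call at 72 h. With the exception of Hadh, none of the 6 held at 24 h on the cardiomyocyte scale, where their adjusted p-values ran from 0.0636 for Echs1 to 0.731 for Acaa2.

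Unsaturated chains need the isomerases Eci1 and Eci2 and the reductase Decr1. All 3 fell at 24 h and at 72 h and none was called at 6 h. Eci1 read 12.16, 12.10, 12.18 and 11.96 in sham, 12.00, 12.49, 11.62 and 12.12 at 6 h, 11.36, 10.80, 11.27 and 11.33 at 24 h, and 10.87, 11.68, 11.77 and 11.26 at 72 h. Every array at 24 and 72 h lay below every sham array. It fell by 0.91 ± 0.20 at 24 h (limma adjusted p = 0.00221) and by 0.71 ± 0.20 at 72 h (adjusted p = 0.0174). Without 72 h replicate 20 or 23 the latter adjusted p was 0.0768 or 0.0525. Hybridization spike-in, poly-A and cardiomyocyte centring gave it 0.382, 0.137 and 0.142 with limma. Eci2 and Decr1 fell by 0.52 and 0.61 at 24 h, and without 24 h replicate 15 their adjusted p-values were 0.16 and 0.107. Their 24 h calls were also lost under hybridization spike-in and cardiomyocyte centring, and their 72 h calls under these and poly-A centring. Quantile normalization took the 72 h limma adjusted p of Decr1 to 0.0505.

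Peroxisomes shorten chains that mitochondria handle poorly, and here the pair of genes differed. Ehhadh, the bifunctional hydratase and dehydrogenase of peroxisomes, measured 7.28, 8.30, 7.96 and 8.09 in sham, 6.14, 6.96, 6.15 and 7.15 at 6 h, 6.99, 6.64, 6.57 and 6.68 at 24 h, and 7.22, 7.63, 7.87 and 7.11 at 72 h. The lowest sham array lay well below the other 3 and still above every array at 6 and 24 h, while the 72 h arrays overlapped sham. It fell by 1.31 ± 0.25 at 6 h (limma adjusted p = 0.000694) and by 1.19 ± 0.25 at 24 h (adjusted p = 0.00126), and its 72 h change was -0.45 ± 0.25 (adjusted p = 0.22). Since its means at 6 and 24 h, 6.60 and 6.72, were under the background level of 6.76, the size of these falls is limited by the background. The thiolase Acaa1a lay between 7.31 and 7.97 on all 16 arrays and changed by 0.04, 0.06 and 0.04, with SEs of 0.17. On the cardiomyocyte scale it rose at 24 h (limma adjusted p = 0.0164), and on that of the hybridization spike-ins at 72 h (adjusted p = 0.0312).

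Acsl6, an acyl-CoA synthetase, and 3 thioesterases, which release free fatty acids from acyl-CoA, all fell at 24 h, and 2 of these 4 genes, Acot1 and Acot2, also fell at 72 h. Acot2, the mitochondrial long-chain enzyme, gave 15.91, 16.11, 15.80 and 15.73 in sham, 15.52, 15.48, 15.32 and 15.90 at 6 h, 14.11, 13.95, 13.91 and 14.29 at 24 h, and 14.20, 14.31, 14.65 and 14.37 at 72 h. Every array at 24 and 72 h lay well below every array of sham and 6 h. Its change was -0.33 ± 0.15 at 6 h (limma adjusted p = 0.158), -1.82 ± 0.15 at 24 h (adjusted p = 1.18e-07) and -1.50 ± 0.15 at 72 h (adjusted p = 8.14e-07). The last 2 left 28.3% and 35.3% of the sham signal. Under the hybridization and poly-A spike-ins its 6 h fall was called (adjusted p = 0.0307 and 0.0134).

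Acot1, its cytosolic relative, read 8.76, 9.21, 8.78 and 8.67 in sham, 9.18, 8.95, 8.41 and 9.16 at 6 h, 7.35, 7.10, 7.38 and 6.94 at 24 h, and 7.82, 7.83, 8.00 and 7.62 at 72 h. The 3 levels were separate, with 24 h lowest, 72 h between and sham and 6 h highest. It fell by 1.66 ± 0.18 at 24 h (limma adjusted p = 1.51e-06) and by 1.04 ± 0.18 at 72 h (adjusted p = 0.000266), with a rise of 0.62 ± 0.18 between them (adjusted p = 0.0239). Acot1 and Acot2 are close paralogs, and whether their probe sets bind each other's RNA was not tested. Acot13, a smaller mitochondrial thioesterase, fell by 0.53 at 24 h and changed by -0.36 at 72 h (adjusted p = 0.0984; 0.0311 under median centring, 0.0358 with the other variance model and 0.0411 with array weights). The synthetase Acsl6 ranged from 3.85 to 5.13, below background on every array, and its call at 24 h (-0.61, adjusted p = 0.0329) rests on such signals and was lost under quantile normalization (adjusted p = 0.0688).

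Ucp3, an uncoupling protein of the inner mitochondrial membrane in muscle that is known as a PPARα target, had the largest fall of the set. It measured 9.30, 10.70, 9.93 and 10.45 in sham, 10.39, 9.95, 9.69 and 11.32 at 6 h, 8.42, 7.39, 8.23 and 7.17 at 24 h, and 9.94, 9.21, 10.34 and 9.94 at 72 h. The 24 h arrays all lay below the other 12, which overlapped among themselves. The change at 24 h was -2.29 ± 0.36 (limma adjusted p = 8.46e-05), to 20.4% of sham. At 6 h it was 0.24 ± 0.36 and at 72 h -0.24 ± 0.36 (adjusted p = 0.735 and 0.688), and the rise of 2.05 ± 0.36 from 24 to 72 h (adjusted p = 0.00063) was the largest in the set. Its unadjusted 95% interval at 72 h ran from -0.99 to 0.51.

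Mlycd breaks down malonyl-CoA, the inhibitor of the Cpt1 step. It stood at 9.08, 8.86, 9.30 and 9.31 in sham, 8.28, 8.44, 8.85 and 9.01 at 6 h, 8.09, 7.72, 7.85 and 8.13 at 24 h, and 8.35, 8.48, 8.89 and 8.64 at 72 h. The 24 h arrays were below all others. Its changes were -0.50 ± 0.18 (limma adjusted p = 0.0578), -1.19 ± 0.18 (adjusted p = 5.34e-05) and -0.55 ± 0.18 (adjusted p = 0.0334), and it rose by 0.64 from 24 to 72 h (adjusted p = 0.0209). Leaving out any 1 sham array other than replicate 3 or any 72 h array other than replicate 22 ended its 72 h call. Hybridization spike-in, poly-A and cardiomyocyte centring ended it too (limma adjusted p = 0.843, 0.283 and 0.328). The 6 h fall of Mlycd was called under both spike-in centrings (adjusted p = 0.0121 and 0.00307) and both expression filters (0.048 and 0.0302). It was also called without sham replicate 3 (0.0379) or 6 h replicate 11 (0.0226).

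Lipid droplets store the fatty acids before use. Plin2, which coats droplets in most cells, was the gene of the set that rose, while Plin5, the droplet coat of oxidative tissues that tethers droplets to mitochondria, fell. Plin2 read 12.19, 12.60, 12.28 and 12.04 in sham, 12.77, 12.56, 12.78 and 12.96 at 6 h, 13.08, 13.19, 13.26 and 13.01 at 24 h, and 13.30, 13.04, 12.71 and 13.47 at 72 h. Every array at 24 and 72 h was above every sham array, and 1 array at 6 h overlapped them. Its changes were 0.49 ± 0.17 at 6 h (limma adjusted p = 0.0444), 0.86 ± 0.17 at 24 h (adjusted p = 0.000684) and 0.85 ± 0.17 at 72 h (adjusted p = 0.000951). The call at 6 h was lost under both spike-in centrings (adjusted p = 0.358 and 0.544). It was also lost without any 1 of sham replicates 2, 4 and 5, 6 h replicates 7, 10 and 11, 24 h replicates 14 and 15, or 72 h replicates 20 and 21 (adjusted p from 0.05 to 0.136).

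Plin5 gave 9.09, 9.61, 9.36 and 8.42 in sham, 9.04, 9.71, 8.86 and 9.71 at 6 h, 8.15, 6.61, 7.67 and 8.35 at 24 h, and 7.49, 7.38, 7.79 and 7.50 at 72 h. Its 24 h arrays spread widely while the 72 h arrays lay close together, and both groups were below sham. The change was 0.21 ± 0.31 at 6 h (limma adjusted p = 0.742), -1.43 ± 0.31 at 24 h (adjusted p = 0.00189) and -1.58 ± 0.31 at 72 h (adjusted p = 0.00101).

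Lpin1 makes diacylglycerol and also acts as a nuclear coactivator of fatty acid genes. Its arrays stood at 14.04, 14.05, 14.03 and 13.92 in sham, 13.002, 13.42, 12.54 and 13.29 at 6 h, 12.73, 12.45, 11.79 and 13.10 at 24 h, and 13.09, 13.39, 13.39 and 13.07 at 72 h. Sham varied little and all 12 later arrays were below it. It fell by 0.95 ± 0.22 at 6 h (limma adjusted p = 0.00446), by 1.49 ± 0.22 at 24 h (adjusted p = 5.56e-05) and by 0.77 ± 0.22 at 72 h (adjusted p = 0.0179), and rose by 0.72 from 24 to 72 h (adjusted p = 0.0405). Without 72 h replicate 20 or 23 the 72 h adjusted p was 0.052 or 0.055. The hybridization spike-ins, the poly-A spike-ins and the cardiomyocyte centring gave it 0.366, 0.129 and 0.107 with limma. Pnpla2, the triglyceride lipase of the droplet surface, changed by 0.21 at 6 h (adjusted p = 0.432) and then fell by 0.97 at 24 h and by 0.67 at 72 h. Its 72 h call was lost under the same centrings (limma adjusted p = 0.476, 0.114 and 0.0998).

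**Figure D3:**
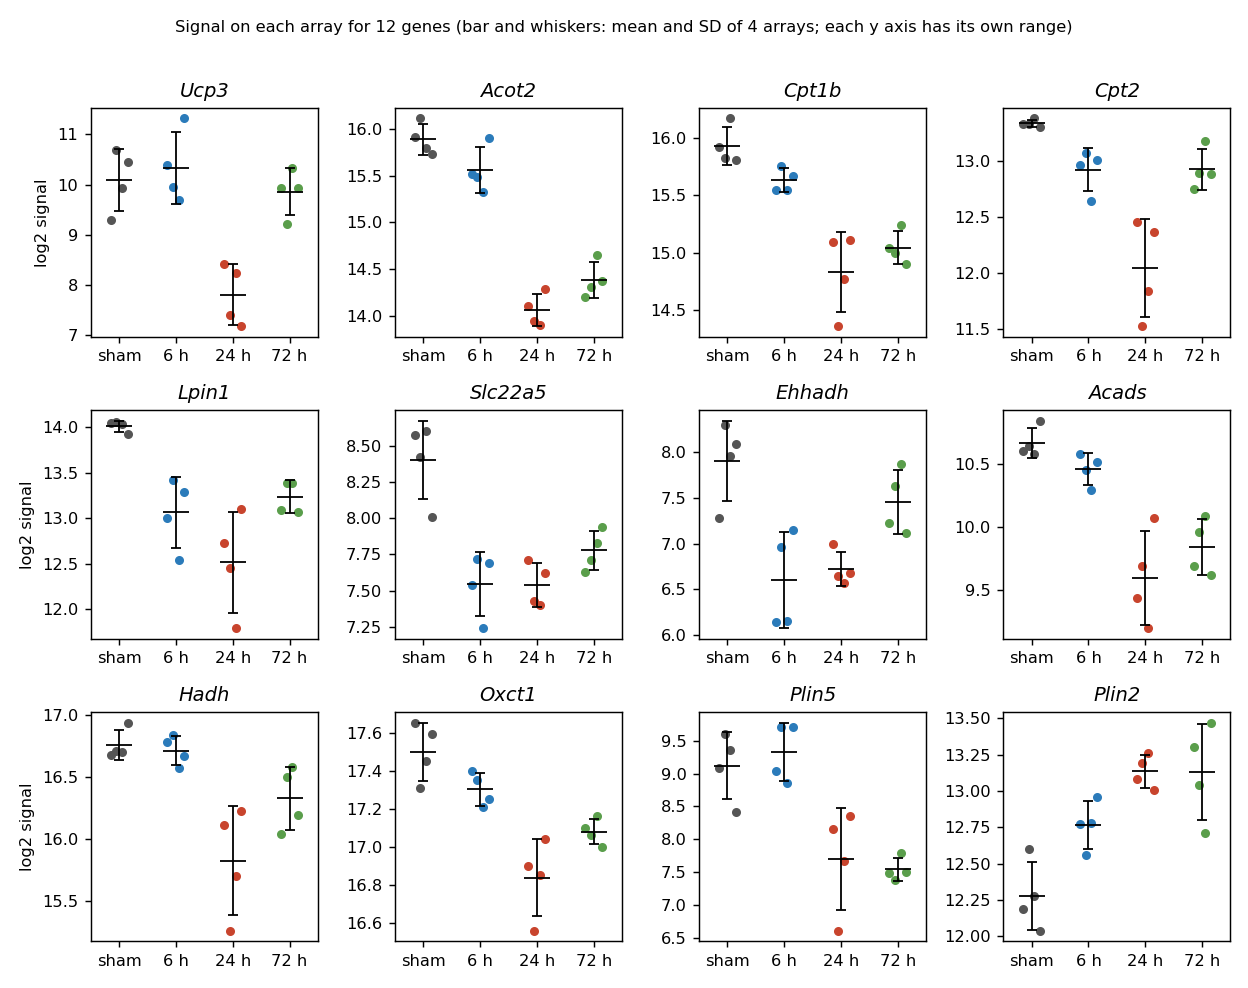
Log2 signal on each array for 12 of the genes in sham and after 6, 24 and 72 h, with the mean and SD of the 4 arrays of a group; each panel has its own range on the y axis. Slc22a5, Lpin1 and Ehhadh are already low at 6 h, Ucp3 is low at 24 h alone, and Plin2 is the panel that goes up.

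Ketone bodies are oxidised through Bdh1, the hydroxybutyrate dehydrogenase, and Oxct1, the rate-limiting transferase. Oxct1 read 17.65, 17.31, 17.45 and 17.59 in sham, 17.40, 17.35, 17.21 and 17.25 at 6 h, 16.90, 16.56, 16.85 and 17.04 at 24 h, and 17.10, 17.06, 17.16 and 16.997 at 72 h. The arrays at 24 and 72 h were below every sham array. The changes were -0.66 ± 0.13 at 24 h (limma adjusted p = 0.00088) and -0.42 ± 0.13 at 72 h (adjusted p = 0.0281), which became -0.35 and 0.07 when arrays were centred on the hybridization spike-ins (adjusted p = 0.112 and 0.722). Quantile normalization gave the 72 h change an adjusted p of 0.0513.

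Bdh1 had the largest SE of the set, 0.42. Its arrays gave 9.68, 8.79, 8.54 and 9.58 in sham, 7.11, 8.31, 8.20 and 8.36 at 6 h, 8.08, 6.96, 6.82 and 9.03 at 24 h, and 8.999, 8.23, 8.98 and 7.85 at 72 h. At 24 h replicate 17 lay among the sham arrays and the other 3 below them. It changed by -1.15 ± 0.42 at 6 h (limma adjusted p = 0.0611) and by -1.42 ± 0.42 at 24 h (adjusted p = 0.0161). The 6 h fall was called under both spike-in centrings (adjusted p = 0.016 and 0.0078), with only the 2 groups compared (0.0219), and in other fits, among them that without 24 h replicate 17 (0.0236). The 24 h adjusted p was 0.0554 without sham replicate 2, 0.0686 without 24 h replicate 15 and 0.0701 without 24 h replicate 16. At 72 h its change was -0.63 ± 0.42 (adjusted p = 0.317).

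Direct tests between the 3 times set the courses of the genes apart. From 6 to 24 h, 25 of the 34 genes fell and 0 rose with limma, where 10.9% of all genes fell and 17.3% rose. From 24 to 72 h, 6 rose and 0 fell, where 6.85% rose and 6.07% fell. The 6 were Cpt2, Crat, Acot1, Ucp3, Mlycd and Lpin1, and 4 of them, all but Cpt2 and Ucp3, were still called lower than sham at 72 h. From 6 to 72 h, 15 were lower and 1, Ehhadh, was higher (0.86 ± 0.25, adjusted p = 0.0127), where 13.1% of all genes fell and 17.5% rose. The direction from 6 to 72 h turned with the scale of the arrays. On the hybridization spike-in scale 15 were higher and 2 lower, where 69.9% of all genes rose and 2.46% fell, and the median change of the 34 genes was 0.30 in place of -0.41. On the poly-A scale 7 were higher and 3 lower, where 47% rose and 3.18% fell, with a median of 0.11. The falls from 6 to 24 h numbered 5 and 11 on these scales, where 2.76% and 4.26% of all genes fell, and the rises from 24 to 72 h numbered 12 and 14, where 9.45% and 13.5% rose. In all, 22 genes fell at both 24 and 72 h and 9 at 24 h with no call at 72 h. Of all genes, 12.3% fell at 24 h and 10.3% at 72 h. Slc22a5 and Lpin1 fell at all 3 times, though their 72 h calls were lost under both spike-in centrings and the cardiomyocyte centring. The estimate was lower at 24 h than at 72 h for 29 genes, among them Cpt1a, uncalled at all 3 times, and higher for 5. Over all 19505 genes it was higher at 24 h than at 72 h for 10306. The rises from 24 to 72 h numbered 2 without 24 h replicate 15 or 72 h replicate 22 and 3 without 24 h replicate 16 or 72 h replicate 21, and the falls from 6 to 72 h numbered 9 without 72 h replicate 20. Over all genes the rises from 24 to 72 h numbered 1072, 1177, 1090 and 1115 in these fits, against 1337. All-gene falls from 6 to 72 h numbered 2063 without 72 h replicate 20, against 2550. The rise of Ehhadh from 6 to 72 h was not called without 6 h replicate 7 or 10.

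Related genes were also compared within each array, by the change of the difference between their log2 signals against sham, with 12 two-sided exact permutation tests of 4 arrays against 4. The smallest p these can give is 0.0286. The 6 tests that reached it had 0.0571 after adjustment over the 12, so none passed. Plin2 minus Plin5 differed from sham by 2.28 at 24 h and by 2.43 at 72 h, with no overlap of arrays (p = 0.0286, exact). Acaa1a minus Acaa2 differed by 0.55 at both 24 and 72 h, again with separate arrays (p = 0.0286, exact). Cpt1a minus Cpt1b differed by 0.99 at 72 h (p = 0.0286, exact) and by 0.54 at 24 h (p = 0.114, exact). Acot1 minus Acot2 differed by 0.46 at 72 h (p = 0.0286, exact) and by 0.16 at 24 h (p = 0.4, exact).

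Within each group the genes tended to stand together on an array. At 24 h replicate 15 gave the lowest signal of the group for 21 of the 34 genes, and replicate 17 the highest for 21. The median difference from sham over the 34 genes was -0.69, -1.21, -0.94 and -0.62 on replicates 14, 15, 16 and 17. The cardiomyocyte markers gave -0.25, -0.48, -0.43 and -0.17 on the same arrays, and the hybridization spike-ins stood at 10.32, 9.99, 10.48 and 10.13. At 72 h replicate 22 was highest for 23 genes, with a median difference of -0.33 against -0.69, -0.50 and -0.64 on replicates 20, 21 and 23. At 6 h replicate 10 was lowest for 25 genes, at -0.32 against -0.10, -0.10 and -0.08 on replicates 7, 8 and 11. The median SD of the genes was 0.13 in sham, 0.20 at 6 h, 0.30 at 24 h and 0.18 at 72 h.

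A set of 10 atrial markers, 6 of them below background in every group, had a mean 2.21 above sham on 24 h replicate 16 and between -0.05 and 0.06 on the other 24 h arrays. Without 24 h replicate 16, 28 of the 34 genes fell at 24 h, and Eci2, Decr1 and Bdh1 lost their calls. Falls over all genes went from 2392 to 1890 in that fit. Without 24 h replicates 16 and 17 together, 30 of the 34 genes fell, where 1999 of 19505 genes fell. Without 72 h replicates 21 and 23 together, whose atrial marker means were 0.54 and 0.43 above sham against 0.14 and 0.14 on replicates 20 and 22, 8 fell at 72 h. Over all genes 767 fell at 72 h in that fit, against 2004 with all arrays. The 7 endothelial markers had a median change of 0.06 at 24 h, with 2 lower and none higher. Of 8 white adipocyte markers 5 (Adipoq and Lep among them), and of 6 brown adipocyte markers 5 (Ucp1 among them), were below background in all 4 groups.

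**Figure D4:**
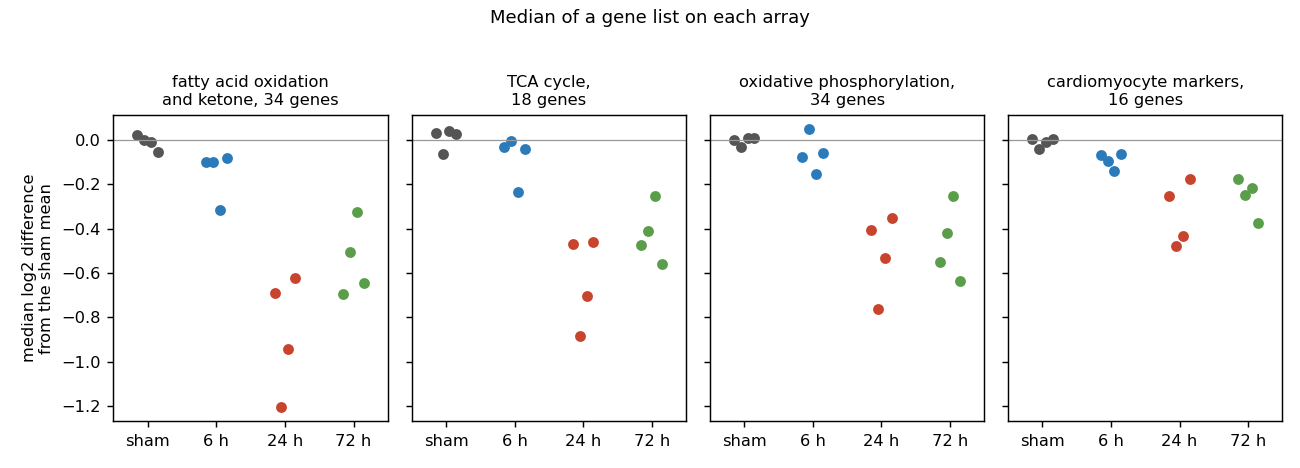
Median difference in log2 signal from the sham mean on each array for the 34 genes, the TCA cycle, oxidative phosphorylation and the cardiomyocyte markers, by group (4 arrays each). All 4 lists drop at 24 h, the 34 genes furthest, to between -1.21 and -0.62.

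Neighbouring parts of energy metabolism fell as well. The shares of all genes that fell were 12.3%, 12.3% and 10.3% at 6, 24 and 72 h. Of 18 measured TCA cycle genes, 0, 15 and 8 fell at 6, 24 and 72 h and none rose, with medians of -0.11, -0.65 and -0.41. Of 34 oxidative phosphorylation genes, 0, 25 and 20 fell and none rose, with medians of -0.05, -0.52 and -0.48. Whether the fatty acid genes fell further than these lists was not tested. Among 10 nuclear receptors and coactivators, 3, 8 and 5 fell, and 1 rose at 6 h. Ppara, the receptor PPARα itself, fell by 2.39 ± 0.27 at 24 h (limma adjusted p = 2.83e-06) and by 1.77 ± 0.27 at 72 h (adjusted p = 7.96e-05). Ppargc1b, a coactivator of mitochondrial genes, fell by 2.09 ± 0.19 at 6 h (limma adjusted p = 1.75e-07), when Pparg, the adipose relative of Ppara, rose by 1.84 ± 0.15 (adjusted p = 3.84e-08).

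Further genes of the same pathways, 69 measured of 74 listed, were counted for comparison. They rose and fell in numbers of 7 and 10 at 6 h, 4 and 34 at 24 h, and 3 and 23 at 72 h. Of all genes, 7.92% rose and 12.3% fell at 6 h, 13.8% and 12.3% at 24 h, and 11.5% and 10.3% at 72 h. The 6 h counts of these 69 genes were thus near the shares over all genes. Among 21 other genes of mitochondrial oxidation 17 fell and 1 rose at 24 h, with a median of -0.86. The largest falls were those of Acad11, an acyl-CoA dehydrogenase, by 2.20 ± 0.23 (limma adjusted p = 1.29e-06), and of Acss1, which activates acetate in mitochondria, by 2.04 ± 0.22 (adjusted p = 1.39e-06). Among 19 other peroxisomal genes 8 fell and 0 rose at 24 h, with a median of -0.27. There Nudt7, a hydrolase of CoA, already fell by 1.90 ± 0.26 at 6 h (adjusted p = 2.12e-05). Other acyl-CoA synthetases went partly the other way. Of 7, 2 rose and 1 fell at 24 h, where 13.8% and 12.3% of all genes did. The rises were Acsl5, by 1.52 ± 0.24, and Acsl4, by 0.99 ± 0.17 (limma adjusted p = 0.000103 and 0.000266). Of 16 other droplet and lipolysis genes, 5 rose and 4 fell at 6 h and 0 rose and 7 fell at 24 h. Plin4, another droplet coat, rose by 1.52 ± 0.26 at 6 h, and G0s2, the inhibitor of Pnpla2, fell by 1.27 ± 0.22 (limma adjusted p = 0.000259 and 0.000314). The 6 h mean of G0s2, 6.60, was under the background level of 6.76, so the size of its fall is limited by the background. Of 6 other ketone genes 0, 1 and 1 fell and 0, 1 and 0 rose at the 3 times, counts near the shares over all genes. Slc16a1, a carrier of ketone bodies and lactate, was the one called at 72 h, where it fell by 1.07 ± 0.16 (adjusted p = 5.68e-05).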

How the data were processed

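The authors' deposited table holds log2 values per probe set for each array. Per the submitters' processing notes they came from Affymetrix Expression Console; its version is not given in the sources used here, nor is the way probes were combined, and the log base is taken as 2 from the range of the values, 1.83 to 19.82. The upper end lies above a scanner's usual log2 range, so folds are on the authors' scale. Array medians ran from 5.84 to 5.95 over all probe sets, and arrays correlated at 0.962 to 0.994 over the 19505 named genes. The design text names another array model than the probe set identifiers show. The number of arrays limits the precision, since read depth does not apply.

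Of 28846 probe sets, 19572 were named through the platform annotation and gave 19505 genes; for the 55 genes with several, the probe set with the highest mean was used, and no member was among them. limma 3.58.1 (R 4.3.3) fitted 4 group means to 16 arrays, with Benjamini-Hochberg adjustment over 19505 genes and a threshold of 0.05. The residual degrees of freedom were 12 and the prior ones 6.94. The fit was tested on simulated data. Python 3.11.15 with pandas 2.3.3 and scipy 1.17.1 made the counts and exact tests. Full values are given for the genes with the largest rise and fall in each role and time, and for other lists at most 2 genes per list and time. The members, lists and alternatives were chosen with earlier results of these data known. A planned ratio of Ucp2 to Ucp3 was not run, since Ucp2 was not named. The alternatives were 5 scalings, including 1 chosen after seeing the data, 2 filters, the mean of probe sets, another variance model, array weights, the 2 groups alone, and fits without 1 or 2 arrays.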

Additional observations from a re-analysis of the deposited data

Results flagged for a closer look

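In 136 groups of 4 arrays, 9 held an array whose gap to the nearest other was large for the group's range; chance alone flags about 1 group in 20. Replicate 10 at 6 h was the low array for 4 genes: Acadm at 13.80 against 14.39 to 14.47 on the other arrays, Etfdh at 16.66 against 16.86 to 16.88, Echs1 at 15.03 against 15.29 to 15.32, and Eci2 at 14.29 against 14.74 to 14.79. Sham replicate 5 was low for Eci2, at 14.27 against 14.72 to 14.79, and for Lpin1, at 13.92 against 14.03 to 14.05. For Hadh sham replicate 5 was high, at 16.94 against 16.68 to 16.71. Replicate 15 at 24 h was low for Eci1, at 10.80 against 11.27 to 11.36. Replicate 7 at 6 h was low for Bdh1, at 7.11 against 8.20 to 8.36.

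The change against sham also differed between times in a direct limma test. It was lower at 24 h than at 6 h for 25 genes, higher at 72 h than at 24 h for 6, and higher at 72 h than at 6 h for 1 and lower for 15. Of all genes, 10.9%, 6.85%, 17.5% and 13.1% were called in these directions, in the same order. The comparison of 72 h with 6 h turned with the scale of the arrays. With hybridization spike-in centring 15 were higher and 2 lower, where 69.9% and 2.46% of all genes were. With poly-A centring 7 were higher and 3 lower, where 47% and 3.18% were.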

How the results depend on the processing

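Scaling moved the counts most. With hybridization spike-in centring, 0 genes rose and 10 fell at 6 h, 20 fell at 24 h, and 2 rose and 3 fell at 72 h, with medians of -0.36, -0.58 and -0.054. From 6 to 24 h 4 rose and 5 fell, from 24 to 72 h 12 rose, and from 6 to 72 h 15 rose and 2 fell, with a median of 0.30 in place of -0.41, where 69.9% of all genes rose with a median of 0.66. The 72 h changes of Echs1 and Oxct1 turned to 0.0012 and 0.074. With poly-A centring 0 rose and 15 fell at 6 h (median -0.48) and 5 fell at 72 h (median -0.36). Of all genes, 31.2% fell at 6 h and 3.02% at 72 h. Between times 1 rose and 11 fell from 6 to 24 h, where 25% and 4.26% of all genes did. From 24 to 72 h 14 rose, where 13.5% did, and from 6 to 72 h 7 rose and 3 fell (median 0.11), where 47% and 3.18% did. With cardiomyocyte centring, chosen after seeing the data, 2 rose and 19 fell at 24 h (median -0.45) and 6 fell at 72 h (median -0.24). Between times 1 rose and 15 fell, 3 rose, and 3 rose and 6 fell, in the same order. Over all genes 32.7% rose and 4.41% fell, 4.92% rose, and 23.9% rose and 6.66% fell. The cause of these shifts was not tested.

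Fitting only the groups compared, or leaving out 24 h replicates 16 and 17, left 0 rises at 6 h, where 1500 and 1646 of 19505 genes rose. The filter on the negative controls gave 5 falls at 6 h and 2 rises from 6 to 72 h, where 2226 and 2556 of 8383 genes did so. Without 72 h replicates 21 and 23, 8 fell at 72 h, 2 rose from 24 h, and 5 fell from 6 h. Over all genes 767 fell, 860 rose and 1514 fell, in the same order. Leaving out each array in turn gave 0 to 1 rises and 3 to 5 falls at 6 h, 25 to 31 falls at 24 h, 11 to 22 at 72 h, 18 to 27 from 6 to 24 h, 2 to 8 rises from 24 to 72 h, and 0 to 2 rises and 9 to 16 falls from 6 to 72 h. Over all genes the same fits gave 1331 to 1632 rises and 1865 to 2451 falls at 6 h, 1890 to 2616 falls at 24 h and 1343 to 2097 at 72 h. They gave 1668 to 2343 all-gene falls from 6 to 24 h and 1032 to 1344 rises from 24 to 72 h. From 6 to 72 h they gave 2976 to 3474 rises and 2063 to 2640 falls over all genes. No fall from 24 to 72 h was called under any setting tried with limma. Of the calls, 3 of 4 at 6 h, 19 of 32 at 24 h and 4 of 23 at 72 h held under every setting. No paired analysis was possible because no 2 groups share replicate numbers. Falls of Ehhadh and Acsl6, and that of G0s2 at 6 h, are limited by background.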
